A study of Mus musculus with 10 samples.

Results

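The 9 genes described here encode the machinery with which microglia, the resident macrophages of the brain, read nucleotides and nucleosides outside the cell: the P2Y receptors P2ry12, P2ry13 and P2ry6, the P2X channels P2rx4 and P2rx7, the related lipid receptor Gpr34, the ectoenzymes Entpd1 (CD39) and Nt5e (CD73), and the adenosine receptor Adora3. They were taken by symbol as a fixed list and are 9 of the 53697 genes in the deposited tables, of which 8 had enough reads to be tested. Microglia were sorted from the brains of female Bhlhe40-/-Bhlhe41-/- double knockout (DKO) mice, which lack both repressors in every cell, and of wild-type (WT) mice, given as C57BL/6J or Rosa26Stop-YFP, and RNA was sequenced in 5 libraries per genotype. The methods give ages of at least 2 and 6 months without assigning them to libraries. The sort took viable CD11b+ CD45.2+ cells without Ly6C, Ly6G, MHCII or CD38, after enzymatic digestion of the tissue at 37 °C. Libraries carry here their genotype and their labelled number, DKO 1 to DKO 5 and WT 1 to WT 5. Whether each stands for 1 animal is not stated, and p-values therefore cover only the variation among the 10 libraries.

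Damaged or active cells release ATP and ADP, which microglia sense through ionotropic P2X channels and G protein-coupled P2Y receptors. P2Y12 and its close relative P2Y13 answer to ADP and couple to Gi, P2Y12 steers the movement of microglial processes towards a source of nucleotides and is used as a marker of the resting state, and P2Y6 answers to UDP and is tied to phagocytosis. CD39 strips phosphates from ATP and ADP, CD73 turns the resulting AMP into adenosine, and adenosine then acts on its own receptors, of which A3 is one. GPR34, once grouped with the P2Y receptors by sequence, answers to lysophosphatidylserine.

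Libraries held 22483284 to 26109349 estimated counts in DKO and 23382114 to 25871082 in WT microglia. Bhlhe40 was read at 1 to 8 counts in DKO and 4 to 28 counts in WT libraries (two-sided exact permutation test on CPM, p = 0.0476). Bhlhe41 RNA was not lower, with 50.9 CPM in DKO and 35.9 CPM in WT microglia on average (exact permutation p = 0.0238, edgeR adjusted p = 0.0707), but the transcript length assigned to it was 2209 bases in DKO and 5998 bases in WT microglia (p = 0.00794 by exact permutation, which is the lowest value possible with groups of 5). All 13 microglia markers, including Tmem119 and Cx3cr1, passed the count filter and none was called by edgeR, DESeq2 or limma voom. By edgeR 1 was higher and 0 were lower at an unadjusted p under 0.05, with 8 positive and 5 negative log2 fold changes. Tmem119 ran from 7054.5 to 8550 CPM in DKO and from 8397 to 10477 CPM in WT libraries. Cx3cr1 ran from 8972 to 10551 CPM in DKO and from 10015 to 11568 CPM in WT libraries, so both lay lower in DKO with overlap. Of 47 markers of other cells, 21 were tested, 3 were higher and 2 lower in DKO microglia by edgeR. Over all tested genes, 4.34% were called higher and 1.85% lower. The share of mitochondrial RNA in the counts was highest in DKO 3 (1.58%), WT 1 (1.75%) and WT 5 (1.54%), against 0.986% to 1.16% in the other libraries. That of ribosomal RNA was highest in WT 5 (1.19%), WT 1 (0.877%) and DKO 3 (0.568%), against 0.341% to 0.489% in the other libraries.

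P2ry12, Gpr34 and P2ry13 were by far the most abundant of the 9 genes in both genotypes. Levels of different genes were compared as counts scaled to library size (CPM) divided by the kilobases of effective length. On this scale P2ry12 stood at 6280.0 ± 1079 in DKO and 9165 ± 1498 in WT microglia (SD, n = 5 each), rank 12 and rank 8 among the 13916 tested genes. Gpr34 followed with 2789 ± 373 CPM per kilobase in DKO and 2921 ± 745 in WT microglia, and P2ry13 with 1569.8 ± 194 in DKO and 2070.2 ± 238 in WT microglia. The ectoenzyme Entpd1 came next at 541 ± 45.7 CPM per kilobase in DKO and 496 ± 52.5 in WT microglia, ahead of P2ry6 at 318 ± 21.5 in DKO and 283 ± 28.9 in WT microglia. These 5 genes kept their order in every library.

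The P2X channels and the adenosine receptor were expressed at a lower level. P2rx7 was read at 117 ± 7.43 CPM per kilobase in DKO and 142 ± 15.1 in WT microglia. P2rx4 was read at 104 ± 7.81 CPM per kilobase in DKO and 97.0 ± 8.31 in WT microglia, and Adora3 at 45.6 ± 4.55 in DKO and 69.7 ± 15.2 in WT microglia. Neighbours in the order were apart in their ranges except for P2rx7 and P2rx4 in DKO, and Gpr34 and P2ry13 as well as P2rx4 and Adora3 in WT microglia, which did not differ beyond the spread between libraries, although the higher gene of each WT pair led within every WT library. Nt5e was all but absent, with 0 to 4.317 counts per library in DKO and 0 to 3.317 counts in WT microglia. A count of 0 allows up to 3 counts, or 0.115 to 0.134 CPM in DKO and 0.116 to 0.128 CPM in WT libraries by library size, counting error only, and with both genotypes near that floor no fold is given.

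**Figure D1:**
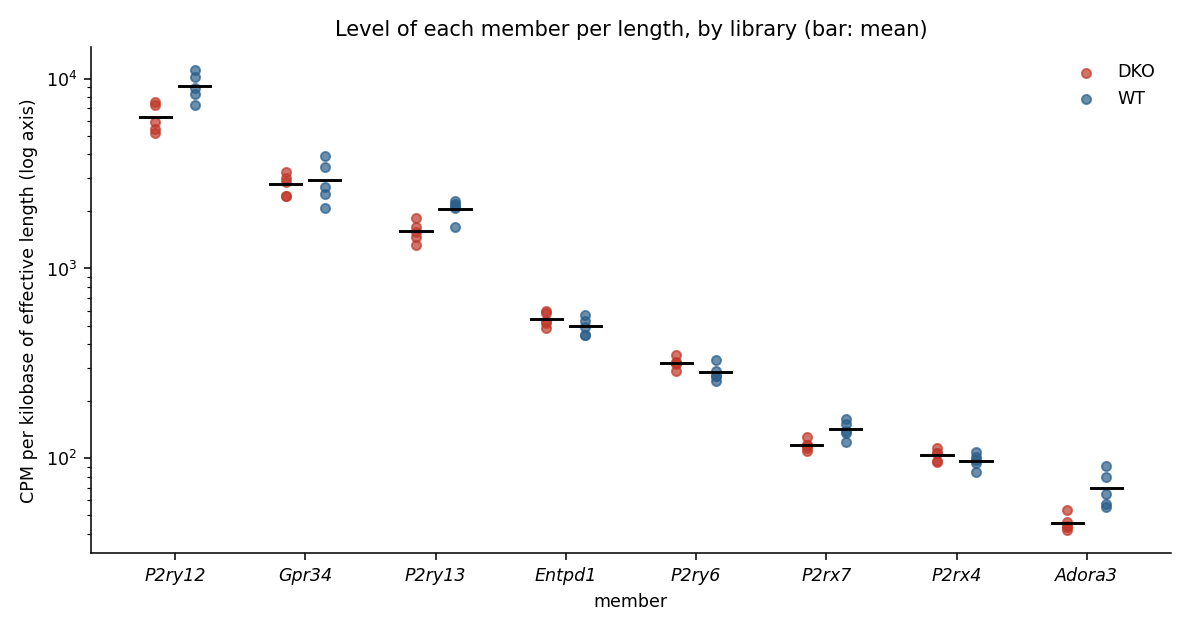
CPM per kilobase of effective length (log axis) of the 8 tested genes, 1 point per library, DKO in red and WT in blue, with a bar at each mean. P2ry12 is the highest gene and Adora3 the lowest in every library, and P2ry12 averages 6280.0 in DKO and 9165 in WT microglia.

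P2ry12 and Adora3 were lower in DKO than in WT microglia, and no gene of the 9 was higher by the test. Of the 8 tested genes, 2 were thus called lower, where 1.85% of all tested genes were, and 0 were called higher, where 4.34% of all tested genes were (edgeR's quasi-likelihood test, Benjamini-Hochberg adjusted p under 0.05, 6.19% of all genes called in either direction). At an unadjusted p under 0.05 there were 4 lower and 1 higher, against 10.03% and 13.28% of all tested genes, and neither DESeq2 nor limma voom called any of the 9 higher. Log2 fold changes of DKO over WT were negative for 5 and positive for 3 of the tested genes, with a median of -0.14 against -0.01 over all tested genes. In 2 of the 8, P2ry12 and Adora3, no DKO library overlapped a WT library in CPM, which held for 7.62% of all tested genes. In bulk RNA of sorted cells, fewer cells of a kind and less RNA per cell cannot be told apart.

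**Figure D2:**
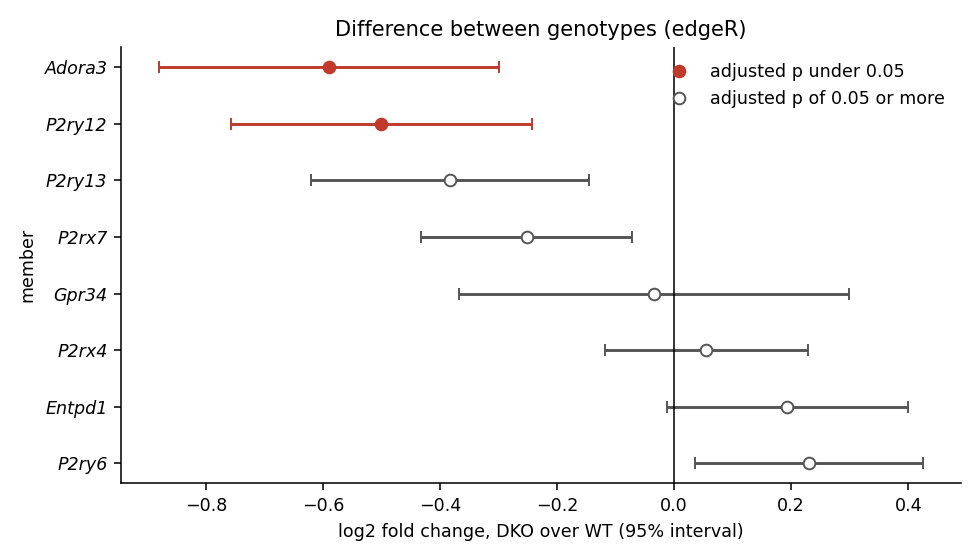
Log2 fold change of DKO over WT with its 95% interval for the 8 tested genes, from edgeR, filled red where the adjusted p is under 0.05. Adora3 (-0.59) and P2ry12 (-0.50) are the only filled points, and the intervals of P2ry13 (-0.38) and P2rx7 (-0.25) also lie below 0.

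P2ry12, the Gi-coupled ADP receptor, was read at 6406, 7174, 7268, 8402 and 8798 CPM in DKO 1 to DKO 5, against 10519, 10009, 9083, 12265 and 11955 CPM in WT 1 to WT 5. Every DKO library lay below every WT library, DKO 5 and WT 3 being nearest to each other. The log2 fold change was -0.50 (SE 0.118, 95% interval -0.76 to -0.24, adjusted p = 0.0301, edgeR), or 0.707 of the WT level. Among libraries numbered 1 to 3, the log2 ratio of mean CPM was -0.51, and among those numbered 4 and 5 it was -0.49. The call was close to the threshold. It was lost without any 1 of DKO 1 (adjusted p = 0.0797), DKO 2 (0.0841), DKO 3 (0.0576), WT 1 (0.0578), WT 2 (0.0527), WT 4 (0.0703) or WT 5 (0.0668) and held without DKO 4, DKO 5 or WT 3, while the log2 fold change stayed between -0.56 and -0.44.

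P2ry12 lies on the minus strand of mouse chromosome 3 (chr3:59216272-59262871, GRCm38), 5389 bases from P2ry13 (chr3:59207892-59210882), a gene of the same strand with a single annotated transcript of 2528 bases. Both lie within the span of Med12l, a gene of the opposite strand for a Mediator subunit, and the library kit does not mark strand, so reads of shared bases cannot be told apart. Med12l was read at 32.7 CPM in DKO and 41.3 CPM in WT microglia, with no overlap (log2 fold change -0.34, adjusted p = 0.0671), few reads beside those of both receptors.

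P2ry13, the second ADP receptor, had a difference of the same sign that did not pass the test. Its CPM were 3783, 3446.5, 3949, 4181 and 4705 in DKO 1 to DKO 5, against 5397, 5389, 4244, 5598 and 5535 in WT 1 to WT 5. All WT libraries but WT 3 lay above every DKO library, and WT 3 lay within the DKO range. Its log2 fold change was -0.38 (SE 0.108, 95% interval -0.62 to -0.15, adjusted p = 0.0607, edgeR). DESeq2 (adjusted p = 0.0330) and limma voom (0.0472) placed P2ry13 past the threshold, as did leaving out WT 3 (0.0148) or DKO 5 (0.0499), and the other 8 left-out libraries did not. Within the libraries numbered 1 to 3 the log2 ratio of means was -0.43, and within 4 and 5 it was -0.33.

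Adora3, the Gi-coupled A3 adenosine receptor, had the largest difference of the tested genes in relative terms. It was read at 87.2, 82.7, 103, 84.9 and 89.8 CPM in DKO 1 to DKO 5, against 172, 126, 113, 109 and 154 CPM in WT 1 to WT 5. The DKO libraries were close to each other and all below WT, and the WT libraries were spread more widely, with WT 1 and WT 5 at the top. The log2 fold change was -0.59 (SE 0.133, 95% interval -0.88 to -0.30, adjusted p = 0.0253, edgeR), or 0.665 of the WT level. Within the libraries numbered 1 to 3 and within 4 and 5 the log2 ratio of means was -0.59 each time. The call was lost without any 1 of DKO 1 (adjusted p = 0.0689), DKO 2 (0.0730), DKO 5 (0.0568), WT 2 (0.0528) or WT 5 (0.0611) and held without any other library. WT 1, WT 5 and DKO 3, the highest libraries of their genotypes for Adora3, were also those with the most mitochondrial RNA, and its part in the result was not tested. They also had the most ribosomal RNA and, within their genotypes, the lowest sums of genes induced by dissociation, whose part was not tested either. Without WT 1 and WT 5 together, the log2 fold change of Adora3 was -0.38 (adjusted p = 0.0827) and that of P2ry12 -0.46 (adjusted p = 0.1098). Adora3 spans chr3:105870858-105908926 on the plus strand and shares bases with Tmigd3 on the same strand, which was read at 2.66 CPM in DKO and 2.26 CPM in WT microglia (adjusted p = 0.513).

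**Figure D3:**
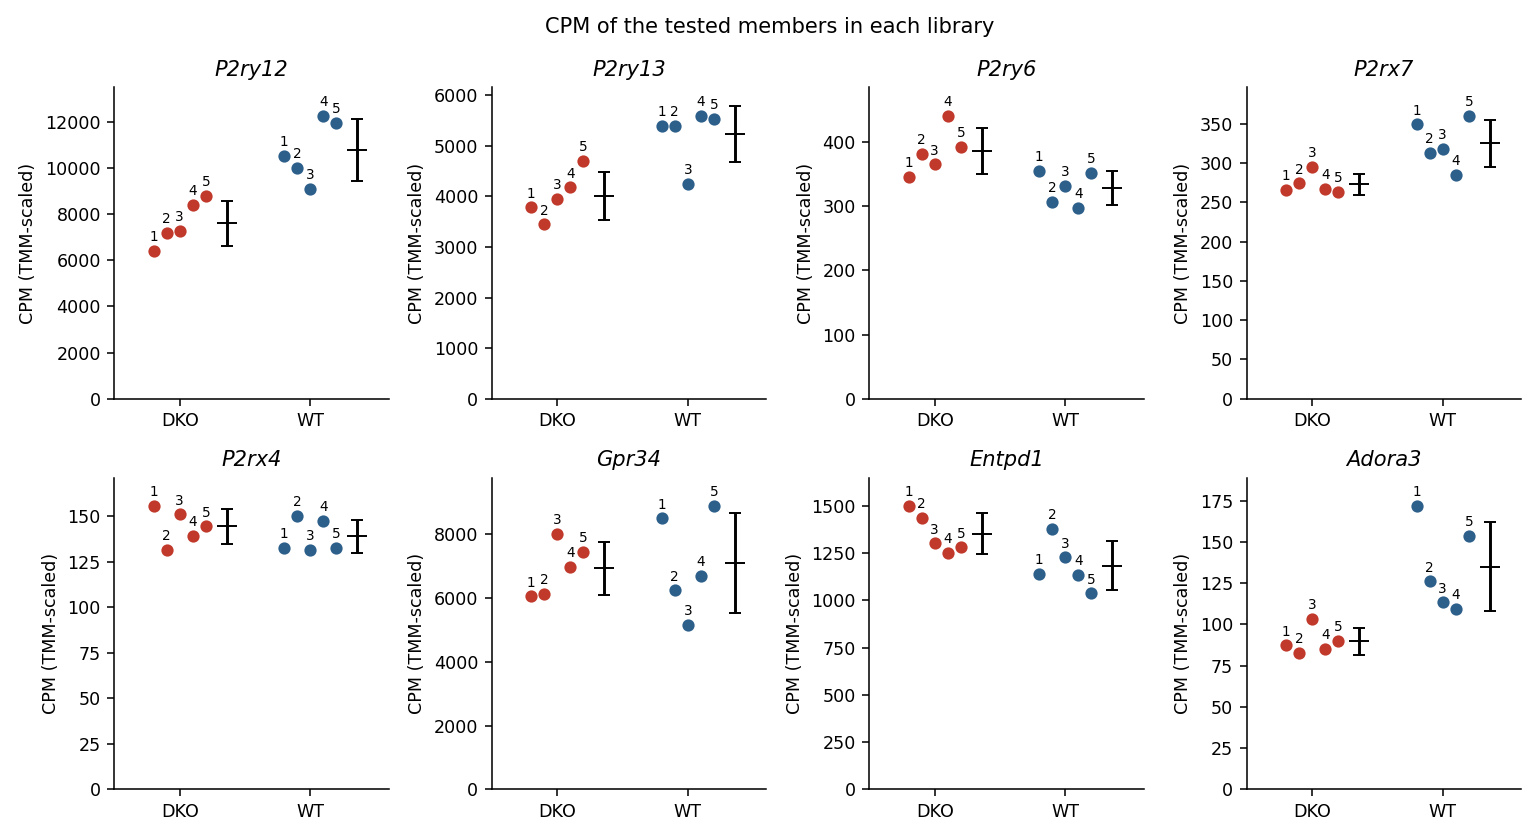
CPM of each tested gene in each library, DKO in red on the left and WT in blue on the right, numbered by replicate, with the mean and SD in black. DKO and WT points are apart for P2ry12 (at most 8798 in DKO, at least 9083 in WT) and for Adora3 (at most 103 in DKO, at least 109 in WT) and overlap for the other 6 genes.

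**Figure D4:**
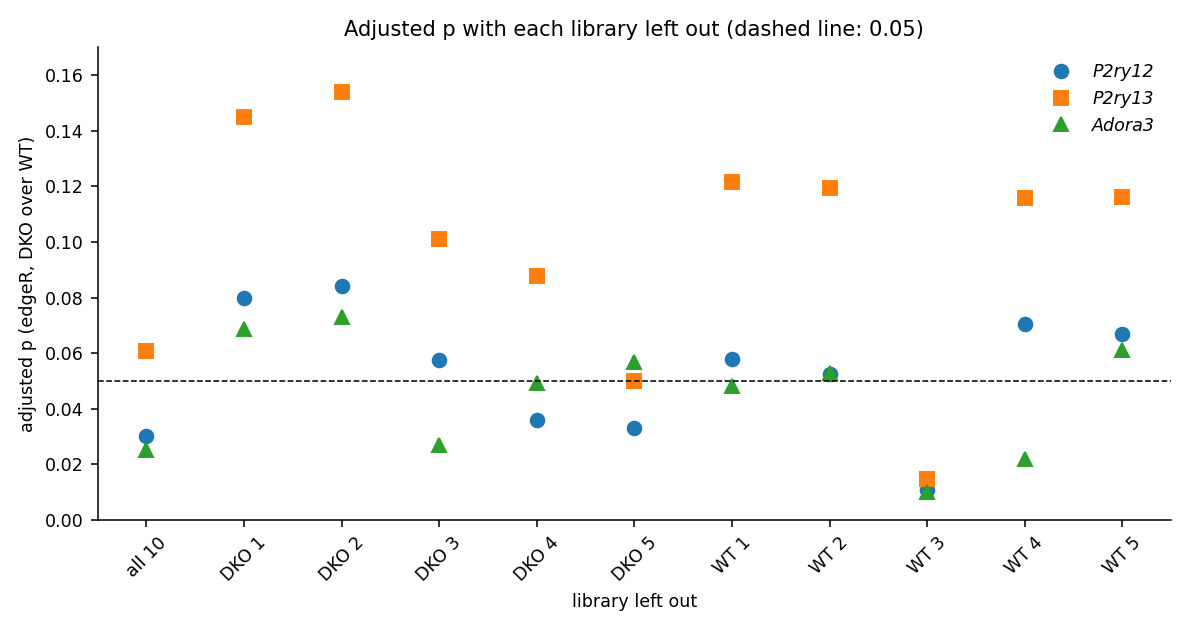
Adjusted p of P2ry12, P2ry13 and Adora3 (edgeR, DKO over WT) with all 10 libraries and with each library left out, the dashed line marking 0.05. The values of P2ry12 run from 0.0107 to 0.0841, those of P2ry13 from 0.0148 to 0.154 and those of Adora3 from 0.00993 to 0.0730, all 3 being lowest without WT 3.

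Promoters are shown for the genes called lower and for the neighbour of P2ry12, because BHLHE40 and BHLHE41 are known to bind the E-box CACGTG and PU.1, the factor that defines the myeloid lineage, a core of GAGGAA. Each sequence is the RefSeq promoter on GRCm38.p6, 250 bases before and 50 bases after the annotated start, written along the strand of the gene. Capitals mark either motif on either strand, so that TTCCTC is the core read on the opposite strand, and the E-box reads alike on both. The windows are chr3:59262936-59263235 for P2ry12, chr3:59210833-59211132 for P2ry13 and chr3:105904171-105904470 for Adora3. Start sites are those of RefSeq and can differ from the gene spans given above, which are from GENCODE. The P2ry12 window lies wholly upstream of its gene span, and the Adora3 window lies inside its own.
P2ry12: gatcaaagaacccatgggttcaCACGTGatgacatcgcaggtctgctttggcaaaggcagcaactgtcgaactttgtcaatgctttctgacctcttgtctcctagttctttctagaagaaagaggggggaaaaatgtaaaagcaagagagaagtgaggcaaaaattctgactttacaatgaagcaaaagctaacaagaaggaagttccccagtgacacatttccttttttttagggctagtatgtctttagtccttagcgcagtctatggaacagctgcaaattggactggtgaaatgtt
P2ry13: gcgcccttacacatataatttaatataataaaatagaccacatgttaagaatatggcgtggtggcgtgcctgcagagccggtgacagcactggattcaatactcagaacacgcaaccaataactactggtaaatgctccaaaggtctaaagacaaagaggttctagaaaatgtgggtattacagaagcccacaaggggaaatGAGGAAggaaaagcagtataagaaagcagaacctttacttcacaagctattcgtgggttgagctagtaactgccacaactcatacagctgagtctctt
Adora3: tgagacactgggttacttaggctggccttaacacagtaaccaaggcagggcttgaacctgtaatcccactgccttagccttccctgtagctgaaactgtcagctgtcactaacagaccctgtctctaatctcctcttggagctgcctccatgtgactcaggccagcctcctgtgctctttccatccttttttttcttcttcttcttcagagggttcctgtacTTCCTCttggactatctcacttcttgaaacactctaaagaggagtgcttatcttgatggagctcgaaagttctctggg
The P2ry12 window held 1 E-box, its first base at -228 from the start site, and no core. The window of P2ry13 held 1 core at -48 and that of Adora3 1 core at -28, and neither held an E-box. The table has promoters for 7 of the 9 genes, 9 windows in all, and P2ry12 was the only 1 of these genes with the E-box, which 7.15% of all 32851 promoters of this length and 8.09% of all genes in the table hold. The core stood in 5 of the 9 windows, where 28.3% of all promoters hold it, and by gene in 4 of the 7 (P2ry13, P2rx7, Entpd1 and Adora3), where 31.3% of all genes hold it. The motifs do not overlap each other in these windows, and a match is a description of the letters, not of binding.

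The P2X channels did not pass the test. P2rx7, the ATP-gated channel that opens at high ATP and feeds inflammasome activation, was read at 266, 274, 295, 267 and 263 CPM in DKO 1 to DKO 5, against 349, 313, 318, 285 and 361 CPM in WT 1 to WT 5. The genotypes overlapped through DKO 3 and WT 4 alone. P2rx7 had a log2 fold change of -0.25 (95% interval -0.43 to -0.07, adjusted p = 0.0955, edgeR), with -0.23 among libraries 1 to 3 and -0.29 among 4 and 5 as log2 ratios of means. Within their genotypes WT 5, WT 1 and DKO 3 were highest for P2rx7 too, the libraries with the most mitochondrial and ribosomal RNA and the lowest dissociation sums. Without WT 1 and WT 5 its log2 fold change was -0.16 (edgeR, adjusted p = 0.357). The part of these traits in P2rx7 was not tested. P2rx4, a channel known for its upregulation in spinal microglia after nerve injury, lies 16111 bases downstream of P2rx7 on chromosome 5. It was read at 132 to 156 CPM in DKO and 132 to 150.2 CPM in WT microglia, with full overlap and a log2 fold change of 0.06 (95% interval -0.12 to 0.23, adjusted p = 0.709). Its sign turned with upper-quartile factors (-0.04), with library size alone (-0.01) and on the TPM scale (-0.26), where log2(TPM + 1) was tested with limma and TPM is the count per length as a share of the library. With Gm23935, a noncoding gene called higher in DKO, taken out of TPM the value was 0.04.

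P2ry6, the UDP receptor, was read at 346, 382, 365, 442 and 393 CPM in DKO 1 to DKO 5, against 356, 307, 331, 297 and 353 CPM in WT 1 to WT 5. DKO libraries were the higher ones apart from DKO 1, which lay below WT 1 and WT 5. For P2ry6 the log2 fold change was 0.23 (95% interval 0.04 to 0.43, adjusted p = 0.147, edgeR), and on the TPM scale it was -0.18, or 0.12 without Gm23935. As log2 ratios of means, libraries 1 to 3 gave 0.14 and libraries 4 and 5 gave 0.36. P2ry6 shares bases with Gm44545, a gene of the opposite strand read at 2.54 CPM in DKO and 3.65 CPM in WT microglia.

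Gpr34, the lysophosphatidylserine receptor, gave no difference that the test resolved. Its CPM were 6045, 6136, 8015.5, 6981 and 7440.2 in DKO 1 to DKO 5, against 8492, 6235, 5156, 6695 and 8877 in WT 1 to WT 5. The WT libraries spanned the whole DKO range on both sides. The log2 fold change was -0.03 (95% interval -0.37 to 0.30, adjusted p = 0.914, edgeR), so that a difference of up to 0.775 or 1.23 times the WT level lay within the interval. The highest values, in WT 5, WT 1 and DKO 3, belonged to the 3 libraries with the most mitochondrial RNA, and without WT 1 and WT 5 the log2 fold change was 0.20 (adjusted p = 0.489). The part of mitochondrial RNA in this, and of the ribosomal RNA and dissociation genes that marked the same libraries, was not tested.

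Gpr34 lies on the X chromosome (chrX:13632089-13640858) within the span of Cask, a scaffold kinase gene on the opposite strand that was higher in DKO microglia. Cask averaged 102 ± 5.35 CPM in DKO and 60.6 ± 5.38 CPM in WT microglia, with no overlap (0.75 on the log2 scale, adjusted p = 0.000432, edgeR), and its call held without any single library. The kit does not mark strand, and reads of Gpr34 outnumbered those of Cask in every library.

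Entpd1, which encodes the ectoenzyme CD39, was read at 1498, 1435, 1302, 1251 and 1279.8 CPM in DKO 1 to DKO 5, against 1141, 1379, 1227, 1133 and 1036 CPM in WT 1 to WT 5. All DKO libraries lay above 4 of the 5 WT libraries, and WT 2 lay within the DKO range. For Entpd1 the log2 fold change was 0.19 (95% interval -0.01 to 0.40, adjusted p = 0.240, edgeR) and was -0.22 on the TPM scale, or 0.08 without Gm23935. Entpd1 is also made by endothelial cells, whose marker Pecam1 averaged 5.09 ± 1.06 CPM in DKO and 44.2 ± 10.2 CPM in WT microglia (log2 fold change -3.12, adjusted p = 7.71e-06). The other 6 endothelial markers did not share this: they summed to 5.87 to 13.2 CPM in DKO and 5.51 to 11.7 CPM in WT libraries, the 2 of them that were tested, Flt1 and Kdr, had positive log2 fold changes (0.08 and 0.21) with 0 at an unadjusted p under 0.05, and Cldn5 was at 0 in 8 of the 10 libraries. All 7 summed to 11.3 to 18.6 CPM in DKO and 41.4 to 63.6 CPM in WT libraries, a difference carried by Pecam1. The part of such cells in the level of Entpd1 was not tested.

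P2ry12 is also a receptor of platelets, and their markers were compared for that reason. Of 7 platelet markers 3 were tested and none was called (edgeR, 0 at an unadjusted p under 0.05, and 0 by DESeq2 and by limma voom), with a summed level of 157 to 193 CPM in DKO and 134 to 219 CPM in WT libraries. Nearly all of it came from Itgb3 (106 to 124 CPM in DKO, 82.2 to 163 CPM in WT) and Gp9 (36.9 to 81.6 CPM in DKO, 32.0 to 82.7 CPM in WT). The defining platelet gene Ppbp was at 0 in 9 libraries, Itga2b reached 0.256 CPM at most and Gp1bb was at 0 in all 10. Pf4, listed here as a marker of border-associated macrophages and also a gene of platelets, was higher in DKO microglia at 3.91 ± 1.55 CPM, against 0.149 ± 0.138 CPM in WT (log2 fold change 4.67, adjusted p = 0.000518). In the same list of 7 markers, Lyve1 and Cd163 were at 0 throughout. Mrc1 was read in every library, at 3.78 to 21.7 CPM in DKO and 3.95 to 15.3 CPM in WT. Of the list 3 were tested, 3 with positive log2 fold changes and 1 called. Its sum was highest in DKO 4 (27.5 CPM), DKO 5 (26.1 CPM), WT 4 (15.8 CPM) and WT 5 (12.3 CPM). The other libraries summed to 7.03 to 10.4 CPM in DKO and 5.18 to 7.48 CPM in WT. The monocyte markers Cd44 (log2 fold change 2.45, adjusted p = 0.00314) and Ly6a (0.74, adjusted p = 0.0315) were higher. Of 8 monocyte markers 4 were tested, 3 with positive and 1 with a negative log2 fold change. At an unadjusted p under 0.05 (edgeR) 2 were higher and 1 lower. Plac8 ran from 0 to 0.448 CPM in DKO and from 0.340 to 1.81 CPM in WT libraries. Ccr2 ran from 4.01 to 6.52 CPM in DKO and from 2.29 to 5.05 CPM in WT libraries, and Ly6c2 reached 0.170 CPM at most. The astrocyte transporter Slc1a3 was lower (log2 fold change -0.83, adjusted p = 0.00401). Of the other 4 tested astrocyte markers 3 had positive log2 fold changes, with 0 at an unadjusted p under 0.05, and the 5 others listed summed to 3.47 to 5.42 CPM in DKO and 1.81 to 4.29 CPM in WT libraries. The call of Ly6a was lost with upper-quartile factors, on the TPM scale and without any 1 of 7 libraries (DKO 1, 3, 4 or 5, WT 1, 2 or 5). Genes induced by tissue dissociation summed to 1165 to 1749.5 CPM in DKO and 644 to 1453 CPM in WT libraries, and none of the 10 passed the test (edgeR, 2 higher and 1 lower at an unadjusted p under 0.05, 0 by DESeq2 and 2 by limma voom). WT 5 (644 CPM) and WT 1 (698 CPM) were the lowest WT libraries, against 1112.5 to 1453 CPM in the others, and DKO 3 (1165 CPM) was the lowest DKO library. These were also the libraries with the most mitochondrial RNA. The part of these cells and genes in the differences of P2ry12 and Adora3 was not tested.

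No tested gene of the 9 was called for a change in the length of its transcripts. The deposited length of a gene is the mean over its annotated isoforms, weighted by their estimated abundance. It varied in 7 of the 8 tested genes, of which 0 were called and 0 had an unadjusted p under 0.05 (limma, adjusted p under 0.05 in 0.0283% of all genes tested for length). P2ry12 averaged 1268 ± 35.3 bases in DKO and 1249.9 ± 20.9 bases in WT microglia, among 5 annotated transcripts of 619 to 2344 bases. Adora3 averaged 2266 ± 23.3 bases in DKO and 2256 ± 23.1 bases in WT microglia. P2rx4 and P2ry6 had the smallest p among these, both with an adjusted p of 0.782.

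Beyond the 9 genes, 72 other genes of nucleotide signalling and of the neighbourhood of these genes were listed, of which 47 were tested. Of these, 4 were higher and 1 was lower in DKO microglia, where 4.34% of all tested genes were higher and 1.85% lower. None of the other receptors passed the edgeR test, while DESeq2 called P2ry2 and Adora1 higher and limma voom called neither. P2ry2 and Adora1 were each called in 1 of 10 fits without a library and in 3 of 15 other settings. P2rx1 was called in 1 of 10 and in 2 of 15. P2ry2, a receptor for ATP and UTP, averaged 4.21 ± 2.14 CPM in DKO and 1.89 ± 0.634 CPM in WT microglia (log2 fold change 1.15, adjusted p = 0.108). P2rx1, a channel of platelets and smooth muscle, averaged 17.2 ± 5.41 CPM in DKO and 26.1 ± 5.32 CPM in WT microglia (-0.60, adjusted p = 0.121). Adora1, the A1 adenosine receptor, averaged 2.25 ± 0.801 CPM in DKO and 1.03 ± 0.291 CPM in WT microglia, and with a log2 fold change of 1.12 (adjusted p = 0.0504) its sign was opposite to that of Adora3. Of the lysophosphatidylserine list, 4 of 7 genes were tested and none was called (edgeR, 0 higher and 2 lower at an unadjusted p under 0.05, 0 by DESeq2 and by limma voom). In that list P2ry10b, a receptor of the same lipid, averaged 47.4 ± 9.998 CPM in DKO and 76.0 ± 25.2 CPM in WT microglia (-0.68, adjusted p = 0.1001, named after its values were seen). Abhd12, a lipase for lysophosphatidylserine, averaged 1965.5 ± 282 CPM in DKO and 873 ± 816 CPM in WT microglia (1.17, adjusted p = 0.285), and Abhd16a, which makes this lipid, 111 ± 11.4 CPM in DKO and 135 ± 17.2 CPM in WT microglia (-0.28, adjusted p = 0.150).

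Of the ectoenzymes, Enpp1 was higher in DKO microglia. ENPP1 cuts ATP to AMP and pyrophosphate, and its gene was read at 19.5 ± 1.08 CPM in DKO and 12.8 ± 1.32 CPM in WT microglia, with no overlap (log2 fold change 0.60, SE 0.106, adjusted p = 0.00747, edgeR). The call held without any single library and was lost on the TPM scale (adjusted p = 0.186) and with either numbered set alone. It was the only call among 3 tested of 10 listed ectonucleotidases, whose median log2 fold change was 0.25. The intracellular and secreted relatives of CD39 gave no call among 4 tested (edgeR, 1 higher and 0 lower at an unadjusted p under 0.05, 0 by DESeq2 and by limma voom). In that group Entpd4 averaged 61.3 ± 4.76 CPM in DKO and 36.5 ± 18.7 CPM in WT microglia (adjusted p = 0.149) and Entpd6 27.3 ± 4.09 CPM in DKO and 32.1 ± 4.06 CPM in WT microglia (adjusted p = 0.306).

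Of the genes that move nucleotides and nucleosides across membranes, Panx1 alone was called. Panx1, the pannexin channel through which ATP leaves cells, averaged 6.86 ± 4.96 CPM in DKO and 1.34 ± 0.276 CPM in WT microglia, with no overlap (log2 fold change 2.35, SE 0.454, adjusted p = 0.0124, edgeR). The call held without any single library and in 10 of 15 other settings. It was lost, among others, with WT 1 and WT 5 left out together and with either numbered set alone. It was the only call among 4 tested genes of nucleotide release. The nucleoside transporters Slc29a3 and Slc29a1 led their list by level and did not pass. Slc29a3 averaged 747 ± 131 CPM in DKO and 960 ± 34.0 CPM in WT microglia, with no overlap (-0.36, adjusted p = 0.0832). Slc29a1 averaged 261 ± 41.7 CPM in DKO and 326 ± 23.0 CPM in WT microglia, with overlap (-0.32, adjusted p = 0.111). Slc29a3 was called in 1 of 10 fits without a library and in 5 of 15 other settings, and Slc29a1 in 0 of 10 and 4 of 15. None of the 5 tested genes of that list was called (edgeR, 0 higher and 2 lower at an unadjusted p under 0.05, 0 by DESeq2 and by limma voom).

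Of the genes downstream of P2Y12 and P2Y13, 11 of 12 were tested, 1 was higher and 0 were lower, and 7 were higher and 0 lower at an unadjusted p under 0.05, a level at which 13.28% of all tested genes were higher. The median log2 fold change was 0.40, against -0.01 over all tested genes, and nothing is drawn from either about the list. DESeq2 called 2 of them and limma voom 3. The called gene was Gnb1, for a beta subunit of G proteins, at 53.4 ± 2.89 CPM in DKO and 41.1 ± 4.04 CPM in WT microglia (log2 fold change 0.38, adjusted p = 0.0346, edgeR). Its call held in 1 of 10 fits without a library (that without WT 3, the others giving an adjusted p up to 0.0943) and in 5 of 15 other settings, being lost with upper-quartile factors and with library size alone among others, and on the TPM scale its sign turned (-0.05). Of 7 genes downstream of P2X7, all tested, 0 were higher and 1 was lower, namely Nlrp3, the sensor of the inflammasome. It averaged 12.3 ± 2.04 CPM in DKO and 18.75 ± 3.49 CPM in WT microglia (-0.61, adjusted p = 0.0460, edgeR), and the call held without WT 2 or WT 3 and was lost without any other library (adjusted p up to 0.104). In other settings it held in 9 of 15 and was lost, among others, with no count filter and with effective length as an offset. The median of that list was -0.01.

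**Figure D5:**
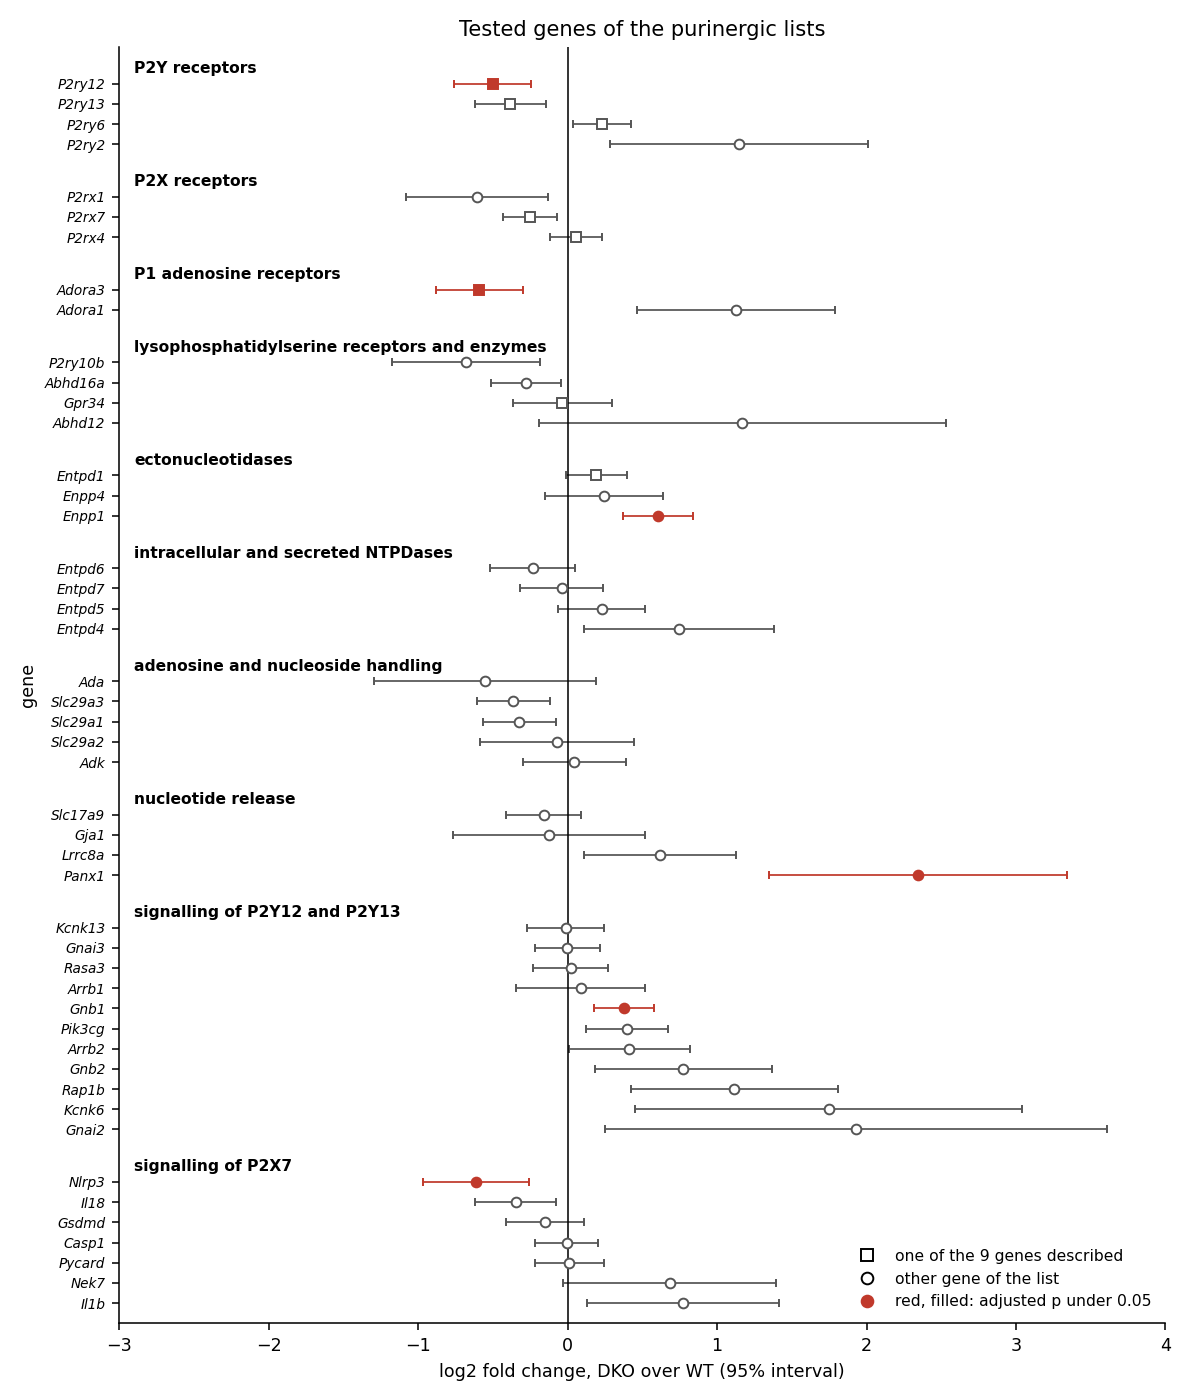
Log2 fold change of DKO over WT with its 95% interval for the tested genes of each nucleotide signalling list, squares for the 9 genes described and circles for others, red and filled where the adjusted p is under 0.05. P2ry12, Adora3 and Nlrp3 are filled left of 0, and Enpp1, Panx1 and Gnb1 right of it.

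The tested genes whose log2 CPM followed each of the 8 genes most closely over the 10 libraries, after the mean of each genotype was subtracted, were of varied kinds. Libraries share depth, scaling and dissociation, so Pearson's r is a description. The closest were Ddx39 (r = 0.984) and Rbbp7 (0.982) for P2ry12, and Klhl6 (0.963) and Cyren (0.958) for P2ry13. For Adora3 they were Best1 (0.981) and Pdp2 (0.977), and for P2rx7 Soat1 (0.983) and Rab5b (0.979). Gpr34 was followed most closely by the mitochondrial gene mt-Co3 (0.988) and by Cept1 (0.987). The remaining pairs were Cct6a (0.953) and Mindy1 (0.950) for P2ry6, Oscp1 (0.910) and Abcd4 (0.882) for P2rx4, and C2cd3 (0.985) and Taf1 (0.983) for Entpd1.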

How the data were processed

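The authors prepared unstranded libraries, and their processing notes name FastQC 0.11.8, cutadapt 2.6 for trimming and STAR 2.5.3a for alignment to mm10. For the program behind the values per gene, a name was not given in the sources used here. Each deposited table lists for every gene an estimated count without normalization, a TPM scaled by the authors within the library, and 2 lengths in bases, of which the effective length corrects for fragment size.

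Estimated counts were rounded to whole numbers, filtered with filterByExpr by genotype at a minimum count of 10 and scaled by TMM. The test was edgeR 4.0.16's quasi-likelihood test in R 4.3.3 (DKO over WT, genotype as the sole term), with Benjamini-Hochberg adjustment over 13916 genes at 0.05. The study names a linear mixed model without its terms, for which limma voom with a random replicate effect was an alternative. CPM use the TMM factors, errors are SDs of 5 libraries, and 95% intervals use the standard error of the fit. Lengths were tested with limma 3.58.1 on log2 values. Positions are from GENCODE M21 and promoters from RefSeq (GRCm38.p6). Gene IDs of the files were found in that annotation for 52806 of 53697 genes. Depth is that of the estimated counts given per library.

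The 9 genes, the other gene lists and the tests were chosen with earlier results of these data known. Named are the 9 genes, both targets, up to 4 called genes per list by smallest p or else the 2 with the highest CPM, genes sharing bases with a tested span, up to 3 called markers per marker list, and the 2 most similar genes. Other settings tried were library size alone, RLE or upper-quartile factors, DESeq2 1.42.0, limma voom, no count filter, effective length as an offset, limma on log2(TPM + 1), the replicate number as a block, a term for libraries numbered 1 to 3 against 4 and 5, each library left out, and WT 1 and WT 5 left out. Either numbered set alone and TPM without Gm23935 were added after seeing the data. Scripts were tested on simulated data.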

Additional observations from a re-analysis of the deposited data

Results flagged for a closer look

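P2ry13 stood at 4244 CPM in WT 3, far below the other 4 WT libraries, which lay between 5389 and 5598 CPM, so that 1 library of the group stood apart from the rest. It was the only such case among 30 groups of 5 values looked at (CPM and transcript length of the tested genes in each genotype), where chance flags about 1 in 20 groups. Without WT 3, the log2 fold change of P2ry13 was -0.45 (edgeR, adjusted p = 0.0148), against -0.38 (adjusted p = 0.0607) with all libraries. WT 3 stood apart beyond this gene as well. Leaving it out gave 1618 calls over all genes, against 862 with all libraries, and 27 calls by length, against 3. Gm23935 was at 575 CPM in WT 3, against 135 to 227 CPM in the other 4 WT libraries and 605 to 942 CPM in DKO. What sets WT 3 apart was not tested.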

How the results depend on the processing

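The direction of P2ry12, P2ry13, P2rx7 and Adora3 held under all 25 alternatives, while their calls did not. P2ry12 was called in 3 of 10 fits that left out a library and in 12 of 15 other settings, Adora3 in 5 of 10 and 11 of 15, P2ry13 in 2 of 10 and 8 of 15, and P2rx7 in 0 of 10 and, on the TPM scale alone (adjusted p = 0.00540), in 1 of 15. With Gm23935 taken out of TPM, P2rx7 was at -0.32 and was not called (limma, adjusted p = 0.0770). Genes called lower among the 9 numbered 2 in the main test, 0 to 3 without a library, 4 with TPM + 1 (3 after Gm23935 was taken out), and 0 with WT 1 and WT 5 left out, with libraries 1 to 3 alone and with libraries 4 and 5 alone. Over all genes, 862 calls became 402 to 1618 without a library (1618 without WT 3), 1431 with a term for the numbering, 1593 with DESeq2, 4815 with TPM + 1, 449 without WT 1 and WT 5, 298 with libraries 1 to 3 and 57 with 4 and 5. Calls were higher in DKO in 70.1% of cases, in 54.6% with upper-quartile factors, in 53.7% with library size alone and in 13.04% with TPM + 1. Over all genes the median was -0.01 on the log2 scale in the main test, -0.11 with upper-quartile factors and -0.26 with TPM + 1, and after Gm23935 was taken out of TPM it was -0.05 with 1077 calls. Log2 fold changes turned sign for P2ry6 (-0.18) and Entpd1 (-0.22) with TPM + 1, for P2rx4 with upper-quartile factors (-0.0443), library size alone (-0.0102) and TPM + 1 (-0.26), and for Gpr34 without WT 1 and WT 5 (0.20), with libraries 1 to 3 alone (0.0188) and among fits without a library (-0.13 to 0.0591). Gm23935, an entry of 57 bases, held 2.32e+05 to 2.66e+05 TPM in DKO libraries. In WT it held 2.03e+05 TPM in WT 3 and 28487 to 66024 TPM in the other libraries. With it taken out of TPM, P2ry6 was at 0.12, Entpd1 at 0.08 and P2rx4 at 0.04, with the sign of the main test. The cause of these turns of sign was not tested. Length calls numbered 3, and 3 to 27 without a library (27 without WT 3). The permutation p of Bhlhe41 was 0.0556 by library size alone.

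Equal replicate numbers do not pair these libraries by their labels, and deviations of same-numbered libraries correlated at -0.236 to 0.198, with 1 of 5 closest to its own number. With the replicate block, 547 genes were called, 1 of the 9 lower (Adora3 had an adjusted p of 0.0670), and 0 by length. The calls of Panx1, Gnb1 and Nlrp3 were lost as well. With the replicate block as a random effect in limma voom, 1305 genes were called.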

Other observations

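Ratios between genes of 1 library do not depend on the scaling of libraries, and 3 were formed after their values had been seen. Each has P2ry12 or Adora3 on top, the genes already called lower, so the ratios restate those calls and add no separate support. How often ratios of other gene pairs lack overlap was not counted. The CPM of P2ry12 over those of Gpr34 ran from 0.907 to 1.20 in DKO and from 1.24 to 1.83 in WT libraries, with no overlap. The CPM of P2ry12 over those of P2ry13 ran from 1.69 to 2.08 in DKO and from 1.86 to 2.19 in WT libraries, with overlap. The CPM of Adora3 over those of P2rx7 ran from 0.301 to 0.350 in DKO and from 0.356 to 0.491 in WT libraries, with no overlap. Of the summed CPM per kilobase of the 9 genes, P2ry12 made up 50.02% to 56.3% in DKO and 56.9% to 63.5% in WT libraries, and Gpr34 22.2% to 27.3% in DKO and 16.8% to 21.9% in WT libraries. These are shares of 1 whole, so a lower share of P2ry12 by itself raises that of the other genes together. Gpr34 in CPM gave no difference that the test resolved (log2 fold change -0.03, adjusted p = 0.914, edgeR), and its share is not read as a gain.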
